A study of Mus musculus with 9 samples.

Results

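The metallothionein gene cluster of the mouse was described as the stretch of chromosome 8 that holds Mt1, Mt2, Mt3 and Mt4, with 20 kb added on each side (chr8:94117197-94200327, 83.1 kb, GRCm38). Its members were the MACS2 peaks and MACE border pairs that lay in this stretch, chosen by position alone. There were 9 peaks of the 30508 in the 6 peak lists and 1 border pair of the 25244 in the 9 border pair lists. The ChIP-nexus libraries came from Neuro2A (N2A) mouse neuroblastoma cells. In this assay λ-exonuclease trims the precipitated DNA back to the crosslinked protein. All cells were transiently transfected with eGFP-GR and mCherry-MR, so receptor levels depend on the plasmids; N2A cells also make GR of their own, which has no tag. GR was pulled down with a GFP antibody and MR with an RFP antibody. The groups were vehicle, CORT (100 nM corticosterone for 20 minutes) and washout (the same CORT, then 2 washes and 40 minutes without it), each with GR, MR and an input without immunoprecipitation. Each receptor or input after each treatment is a single deposited list, and the 3 replicates were combined for the peak lists, so no value below has a replicate error or a p-value between conditions.

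Metallothioneins are small, cysteine-rich proteins that bind zinc and copper and buffer cells against excess metal. Mt1 and Mt2 are made in most tissues and are induced by metals, through the zinc-sensing factor MTF-1 and its metal response elements, and by glucocorticoids. In the mouse, the glucocorticoid induction of both has been traced to a pair of glucocorticoid response elements (GREs) that lie upstream of Mt2. Mt3 is best known from the brain and Mt4 from stratified epithelia. GR and MR bind the same GRE, an inverted repeat of AGAACA with a spacer of 3 bases.

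Receptor peaks were found at 2 places in the cluster. The upstream place (chr8:94171416-94171596, 181 bp) had its end at −1068 bp from the annotated start of Mt2. It had a weak GR peak after CORT and a weak MR peak after washout. The downstream place (chr8:94189411-94190056, 646 bp) began 9084 bp past the end of Mt1 and had peaks of both receptors after CORT and after washout, 7 in all. No peak of either receptor lay in the cluster after vehicle, and none lay in or within 5 kb of Mt1, Mt3 or Mt4 in any list.

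The DNA under the peaks is shown with the response element matches it holds. It is given in full for the upstream place and only in part (stretches A and B) for the downstream place. The cluster as a whole had 101 GRE matches of at most 3 mismatches, of which 4 lay inside peaks, and 11 of at most 2 mismatches, of which 1 did. Peaks covered 0.995% of the cluster. Sequences are the plus strand of GRCm38, which is also the sense strand of the 4 genes. In the first 2 stretches capitals mark the fixed bases of GRE matches, which are AGAACA and TGTTCT around 3 free bases, with at most 3 mismatches in the 12 fixed bases. In stretch B, which has no such match, capitals mark exact copies of AGAACA or TGTTCT.
Upstream place (chr8:94171416-94171596): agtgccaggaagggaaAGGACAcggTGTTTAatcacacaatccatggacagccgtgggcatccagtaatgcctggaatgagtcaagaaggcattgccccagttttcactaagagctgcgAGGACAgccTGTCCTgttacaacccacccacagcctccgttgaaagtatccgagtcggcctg
Downstream stretch A (chr8:94189521-94189691): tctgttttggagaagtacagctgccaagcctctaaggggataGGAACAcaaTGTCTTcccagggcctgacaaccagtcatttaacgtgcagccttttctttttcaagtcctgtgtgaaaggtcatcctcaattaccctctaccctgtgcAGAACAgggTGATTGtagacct
Downstream stretch B (chr8:94189795-94189975): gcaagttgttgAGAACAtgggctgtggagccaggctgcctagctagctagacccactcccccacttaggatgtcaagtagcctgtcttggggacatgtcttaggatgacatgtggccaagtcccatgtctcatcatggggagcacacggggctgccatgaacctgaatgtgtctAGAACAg

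**Figure D1:**
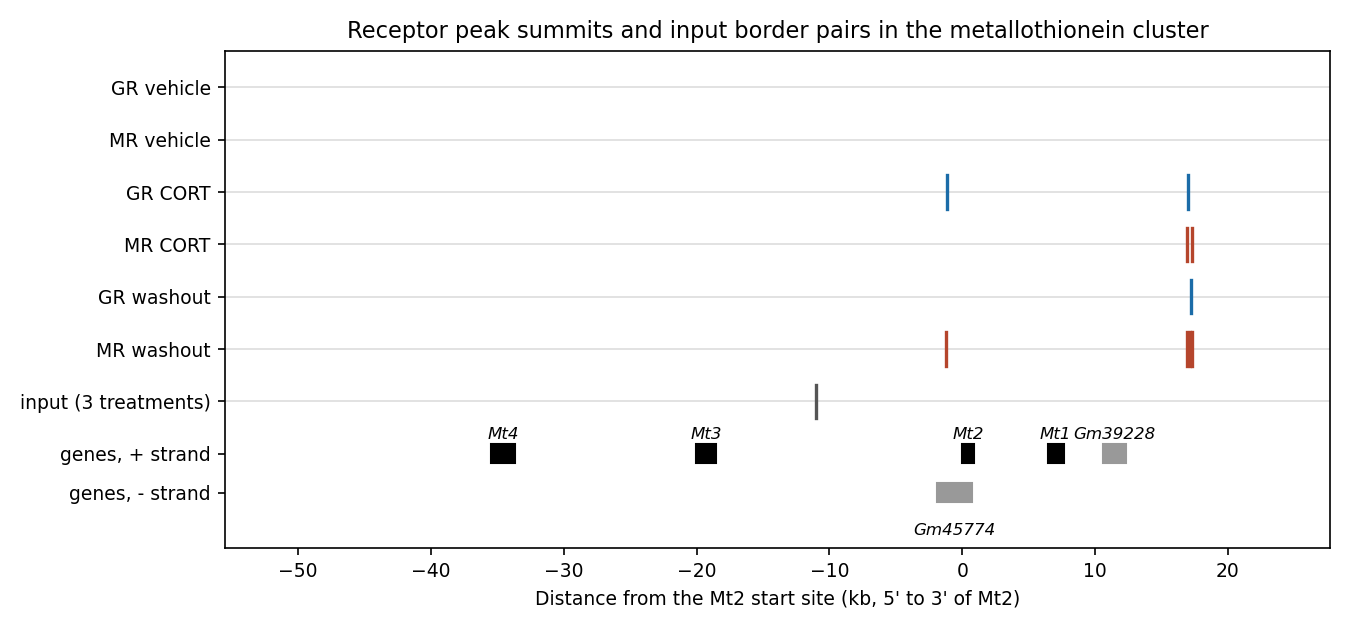
Summits of receptor peaks (vertical lines, blue for GR and red for MR) in each of the 6 peak lists and the input border pair (grey), by distance in kb from the GENCODE start of Mt2. Protein-coding genes are black boxes and noncoding genes grey boxes. All 9 summits fall at 2 places, 1125 to 1222 bp before Mt2 and 16917 to 17281 bp past its start.

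The 4 genes lie on the plus strand in the order Mt4 (ENSMUSG00000031757, chr8:94137197-94139031), Mt3 (ENSMUSG00000031760, chr8:94152607-94154146), Mt2 (ENSMUSG00000031762, chr8:94172664-94173568) and Mt1 (ENSMUSG00000031765, chr8:94179082-94180327). Mt2 and Mt1 are 5513 bp apart, while 18517 bp separate Mt3 from Mt2 and 13575 bp separate Mt4 from Mt3. GENCODE M21 has 2 other genes in the stretch. Gm45774 (chr8:94170748-94173412) is an antisense gene on the minus strand that overlaps Mt2, and Gm39228 (chr8:94183289-94184969) is a long intergenic noncoding RNA gene between Mt1 and the downstream place. The upstream place lay in an exon of Gm45774. The downstream place lay in no annotated gene. It was 4442 bp past Gm39228, within the 5 kb used below to assign peaks to genes, and 24508 bp before the start of Nup93, a nuclear pore gene.

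Distances from each start site showed which member had a peak close by. From Mt2 to the nearest summit it was 1125 bp in the GR list after CORT, and 3.72% of the 21951 protein-coding genes had a summit as near. It was 1222 bp in the MR list after washout, where 1.13% of genes had one as near. In the MR list after CORT it was 16917 bp (18.3% of genes as near), and in the GR list after washout 17244 bp (0.446% of genes as near). Mt2 was therefore the member with the nearest peak in 2 lists, and in the other 2 lists it was Mt1. The shares are over genes of all chromosomes, and none was computed for chromosome 8 alone. GR washout peaks were denser on chromosome 8, at 0.417 per Mb against 0.0844 over all chromosomes.

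For Mt1, the nearest GR summit after CORT was 7543 bp upstream, next to Mt2, and 9.64% of protein-coding genes had one as near. The nearest MR summit after CORT lay 10499 bp past the start of Mt1 and the nearest GR summit after washout 10826 bp past it, in the downstream place. After washout the nearest MR summit to Mt1 was again upstream, at 7640 bp. Mt3 was 18835 bp and Mt4 34245 bp from the nearest MR summit after washout. After CORT the nearest GR summit was 18932 bp from Mt3 and 29356 bp from Mt4. The latter summit lay upstream of Mt4, outside the cluster, so the metallothioneins best known from brain and epithelia had no listed peak of their own.

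By the rule of a peak in the gene or within 5 kb, 1 of the 4 genes, Mt2, had a GR peak after CORT, against 17.7% of all protein-coding genes. None of the 4 had an MR peak after CORT, against 20.5%. After washout none had a GR peak (0.67% of all) and 1 of 4, again Mt2, had an MR peak (9.42% of all). After vehicle the count was 0 of 4 in both lists, against 0.082% of all protein-coding genes for GR and 0.0774% for MR. With 4 genes, a count of 1 has an exact 95% interval from 0.631% to 80.6%, and a count of 0 allows up to 60.2%, so these counts were not distinguishable from the shares among all genes. The members are also short, with a median of 1.39 kb against 17.4 kb for all protein-coding genes.

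At the upstream place, the GR peak after CORT (chr8:94171464-94171596, 133 bp) had a −log10 p of 7.13, which is the strength of the peak against input as MACS2 gave it. Its −log10 q was 3.51, and it ranked 8599 of 10602 GR peaks (18.3rd percentile). The MR peak after washout (chr8:94171416-94171463, 48 bp) had a −log10 p of 6.76 and a −log10 q of 2.69 and ranked 4207 of 4885 (13.3rd percentile). Both were thus near the weak end of their lists, whose lowest −log10 p were 4.35 and 4.89. The paper reports far fewer sites after CORT shared between replicates than the pooled lists hold, for GR and also for MR. Whether the upstream GR peak was among them is not known from the pooled list. The same holds for the downstream peaks of both receptors after CORT, described below. The 2 upstream intervals touched without sharing a base, and their summits were 97 bp apart. Strength grows with sequencing depth, so the values rank peaks within a list and are not amounts of binding to compare between lists.

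Each of these upstream peaks had a GRE match beside its summit, seen in the first sequence above. Under the GR summit the match AGGACAgccTGTCCT (chr8:94171535-94171549) had 2 mismatches and was centred 3 bp from the summit, at −1122 bp from the start of Mt2. Its outer bases read the same on the minus strand. Of the GR peaks after CORT, 10.5% had a match with at most 2 mismatches within 100 bp of the summit. Under the MR summit the match AGGACAcggTGTTTA (chr8:94171432-94171446) had 3 mismatches and was also centred 3 bp from the summit. The 2 matches were centred 103 bp apart. A further match of 3 mismatches, centred at −1332 bp from the start of Mt2, lay under no peak. An AP-1 heptamer, TGAGTCA (chr8:94171493-94171499), lay between them in the GR peak. Such a heptamer (TGACTCA or TGAGTCA) was present around 8.73% of GR summits after CORT and 9.20% of MR summits after washout, 100 bp to each side.

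**Figure D2:**
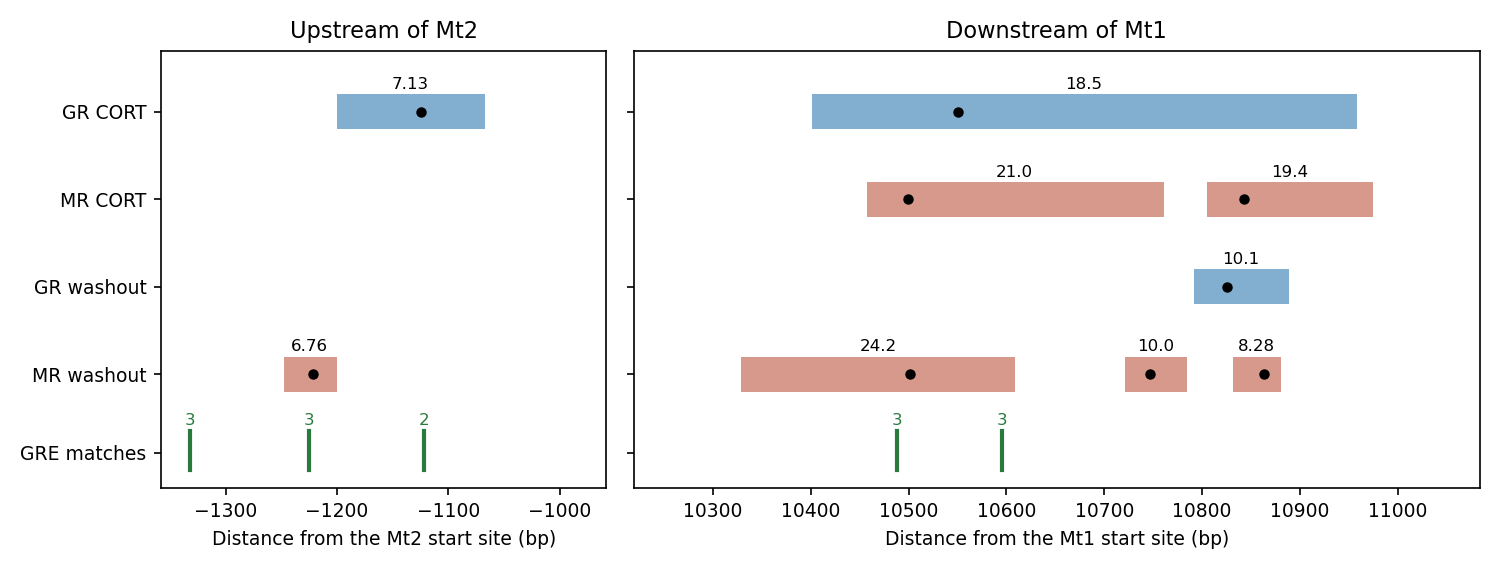
Peaks (bars), summits (black points) and their −log10 p (numbers above bars) at the upstream place, by distance in bp from the start of Mt2, and at the downstream place, by distance from the start of Mt1. Green ticks are GRE matches with the number of mismatches above them. The upstream GR and MR bars abut, with a match of 2 mismatches inside the GR bar and one of 3 inside the MR bar, and the downstream GR bar after CORT overlaps 2 MR bars.

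At the downstream place, the GR peak after CORT (chr8:94189483-94190039) had a −log10 p of 18.5 and ranked 560 of 10602 (94.7th percentile). It was 557 bp wide, a width at the 99.6th percentile of its list. After CORT, MR had 2 peaks here. The first (chr8:94189539-94189842, 304 bp) had a −log10 p of 21.01 and ranked 742 of 14638 (94.9th percentile). The second (chr8:94189887-94190056, 170 bp) had a −log10 p of 19.4 and ranked 949 (93.5th percentile). All 3 thus ranked between the 93.5th and the 94.9th percentile, where the upstream GR peak ranked at the 18.3rd.

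The GR peak overlapped both MR peaks, whose summits were 344 bp apart. The GR summit was 51 bp from the summit of the first MR peak and 293 bp from that of the second. An overlap with an MR peak of at least 1 bp was therefore found for 1 of the 2 GR peaks of the cluster after CORT, against 61% of the whole GR list. Overlap with 2 or more MR peaks was found for 5.25% of the GR list. Both MR peaks of the cluster were overlapped by a GR peak, against 47.6% of the MR list.

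After washout, the downstream place had 1 GR and 3 MR peaks. The GR peak (chr8:94189874-94189970, 97 bp) had a −log10 p of 10.1 and ranked 132 of the 246 GR peaks that were left (46.5th percentile). The strongest MR peak (chr8:94189411-94189690, 280 bp) had a −log10 p of 24.2 and ranked 161 of 4885 (96.7th percentile). The other MR peaks were at chr8:94189803-94189866 with a −log10 p of 10.01 (55.8th percentile) and at chr8:94189914-94189962 with 8.28 (34.4th percentile). After washout the MR peaks thus lay in both the first and the last part of the place, and the GR peak lay only in the last part, nearer Nup93.

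Of the 3 downstream MR summits after washout, 2 were close to an MR summit after CORT. The strongest was 2 bp from the first MR summit after CORT, and the weakest was 20 bp from the second. The summit of the peak with a −log10 p of 10.01 lay between them, 248 bp from the first and 96 bp from the second. The GR summit after washout was 17 bp from the second MR summit after CORT and 276 bp from the GR summit after CORT. A GR washout peak overlapped 1 of the 2 GR peaks of the cluster, against 2.13% of the GR list after CORT. An MR washout peak overlapped both MR peaks, against 24.6% of the MR list. In the other direction, 3 of the 4 MR peaks after washout, all but the upstream one, were overlapped by an MR peak after CORT, against 75.7% of the MR washout list. GR peaks after CORT that were overlapped by MR after CORT, GR after washout and MR after washout made up 1.73% of the list, and the downstream peak was 1 of these 183. All overlap shares given here and for the CORT peaks above are over whole lists. A wide peak has more room for an overlap. Shares among peaks as strong or as wide as the downstream ones, or on chromosome 8 alone, were not computed.

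**Figure D3:**
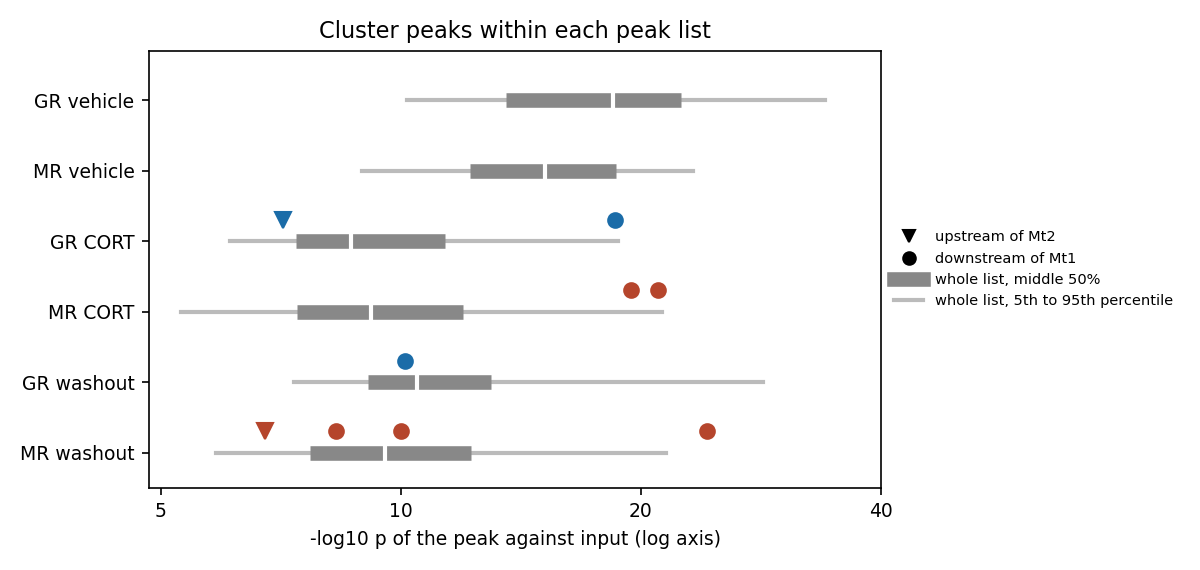
Strength (−log10 p against input, log axis) of the cluster peaks within each list, with triangles for the upstream and circles for the downstream place. Grey bars give the middle 50% and thin lines the 5th to 95th percentile of the whole list, with the median in white. Downstream peaks reach 18.5 for GR and 21.01 for MR after CORT and 24.2 for MR after washout, while the upstream peaks are at 7.13 and 6.76.

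GRE matches at the downstream place sat in its first part. The match GGAACAcaaTGTCTT (chr8:94189563-94189577, 3 mismatches) was centred 11 bp from the first MR summit after CORT and 13 bp from the strongest MR summit after washout. A further match of 3 mismatches, AGAACAgggTGATTG (chr8:94189670-94189684), was centred 107 bp further on and 45 bp from the GR summit after CORT. Around the second MR summit after CORT and the GR summit after washout the closest match within 100 bp had 5 mismatches. Exact AGAACA hexamers lay on both sides of these summits, at chr8:94189806-94189811 and chr8:94189969-94189974 (stretch B), and the latter was within 100 bp of both. At that distance, 34.2% of MR summits after CORT and 27.8% of GR summits after washout had an exact AGAACA or TGTTCT. The closeness of a match is a description of letters and says nothing of how the receptors met the DNA.

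Counted over the cluster, a GRE match of at most 3 mismatches lay within 100 bp of the summit in both GR peaks after CORT (37.7% of the whole list) and in 1 of 2 MR peaks after CORT (39.9%). After washout it was found for the GR peak in 0 of 1 case (32.6% of the list) and in 2 of 4 MR peaks (45.5%). With 9 peaks at 2 places, which share much of their DNA, these counts are a description.

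None of the 9 peaks reached the promoters of the 4 genes, taken from RefSeq (GRCm38.p6, matched for 4 of 4) as 250 bases before to 50 bases after each start. The RefSeq start of Mt2 differs slightly from that of GENCODE used above. The core of the metal response element, TGCACNC or TGCGCNC on either strand, occurred 4 times in the Mt2 promoter and 3 times in the Mt1 promoter. At least as many were found in 0.517% and 1.97% of 32851 RefSeq promoters of the same length. The promoters of Mt3 and Mt4 each had 1, and 25.7% of all promoters had at least 1. The core was searched for in the promoters only, so whether it also occurs under the peaks was not examined.

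The surroundings were compared because chromosome 8 had many peaks and many input border pairs. The input pairs of the 3 treatments together numbered 31.4 per Mb on chromosome 8 (95% Poisson interval 30.5 to 32.4) and 5.93 per Mb over chromosomes 1 to 19, X and Y. In the 2 Mb centred on the cluster there were 14 pairs, or 7 per Mb (3.83 to 11.7), which was below the rate of the chromosome, with the genome's rate inside its interval. The only border pair of the cluster was in the input after CORT (chr8:94161633-94161647), 7.49 kb past Mt3, 9.77 kb from the upstream place and 27.8 kb from the downstream place. The input thus had no border pair at either place where receptors had peaks. Copy number was not measured, and its part in the peak counts was not tested.

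Of all peaks, 11.6% of the GR and 10.8% of the MR peaks after CORT lay on chromosome 8, and 22.0% of the GR peaks after washout did. In the 2 Mb around the cluster there were 11.0 GR and 12.5 MR peaks per Mb after CORT, against 9.51 and 12.3 on chromosome 8 and 3.88 and 5.34 over all chromosomes. The cluster itself, with 2 peaks per CORT list, had a density 2.53 times that of chromosome 8 for GR (95% Poisson interval 0.307 to 9.14) and 1.96 times for MR (0.238 to 7.09). Both intervals hold 1, so a difference from the chromosome was not detectable for the CORT lists. After washout the ratio was 28.8 for GR (0.730 to 161), from 1 peak, and 11.1 for MR (3.02 to 28.4), from 4 peaks. The MR interval lies above 1, but it takes peaks as independent, and 3 of the 4 lay together at the downstream place. Cut into consecutive windows as long as the cluster, the chromosomes gave 32776 windows, of which 15.7% held GR and 18.9% held MR after CORT. After washout 0.567% held GR and 9.23% held MR, and 0.485% had a peak in all 4 lists, as the cluster did. These shares are over all chromosomes, and none was computed for chromosome 8 alone. GR washout peaks were denser there, at 0.417 per Mb against 0.0844 over all chromosomes.

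**Figure D4:**
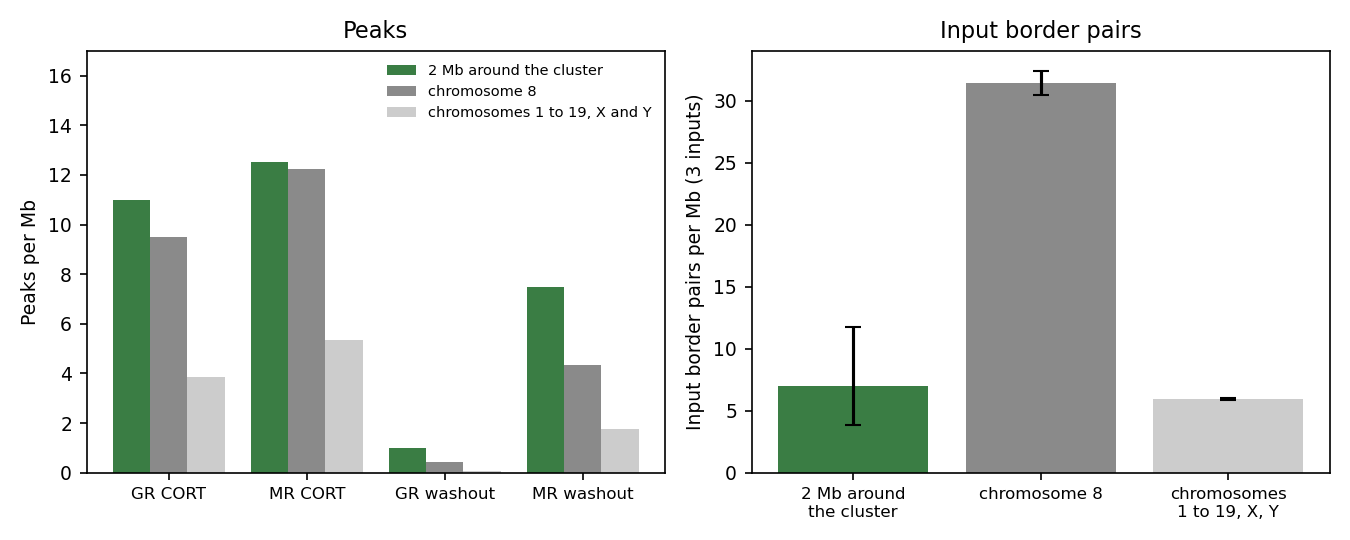
Peaks per Mb in 4 lists (left) and input border pairs per Mb (right, 3 inputs together, error bars are 95% Poisson intervals) in the 2 Mb around the cluster, on chromosome 8 and over chromosomes 1 to 19, X and Y. Input pairs near the cluster stand at 7 per Mb against 31.4 for chromosome 8.

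No border pair of either receptor was listed in the cluster. The nearest of MR were 1063 kb away after CORT and 1178 kb away after washout. Border pairs overlapped 10.4% of all MR peaks after CORT, 9.87% of MR peaks after washout and 23.2% of GR peaks after washout. Most peaks of these lists thus had none. The share among peaks as strong as those of the downstream place was not computed. The deposited list of GR border pairs after CORT had only 139 pairs, of which 7 were on chromosome 8. The paper reports far more GR border pairs after CORT, so this list is not the full set. The lack of a GR pair after CORT therefore cannot be read as absence, and no share is given for it.

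Just outside the cluster, the nearest peak before it was a GR peak after CORT, 9.34 kb from its edge in no annotated gene, with a −log10 p of 7.13. The nearest after it were in Nup93, 24.3 kb from the edge for MR and 27.4 kb for GR after CORT. Nup93 itself had 3 GR and 5 MR peaks after CORT, with −log10 p up to 8.66 and 13.7, and 1 GR and 2 MR peaks after washout. In each of the 4 lists the strongest peak of the downstream place had a higher −log10 p than any Nup93 peak.

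Known glucocorticoid-induced genes, taken with the same 20 kb on each side, are given for orientation. Fkbp5, which encodes a co-chaperone of the receptors, had 13 peaks of GR and 16 of MR after CORT and, after washout, 0 of GR and 12 of MR. Its strongest GR peak after CORT was at the 99.8th percentile. Per1, a clock gene, had 2 of each receptor after CORT and only 2 of MR after washout, and its strongest GR peak was at the 94.1st percentile. Sgk1, a kinase that regulates sodium transport, had 3 of each after CORT and 2 of MR after washout, and the strongest GR peak ranked at the 89.2nd. Tsc22d3, which encodes the anti-inflammatory protein GILZ, had 1 of GR and 2 of MR after CORT and none after washout, and the GR peak ranked at the 25.9th. None of these 4 loci had a GR peak after washout, while the metallothionein cluster had 1, with a −log10 q of 4.77. Such peaks were rare, in 0.567% of windows as long as the cluster, so their lack at these loci was the usual case. The 4 loci are not on chromosome 8, where GR washout peaks were denser. The loci differ in length, from 54.7 kb to 158 kb, and no test was made.

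Other genes that handle zinc and copper were examined as the wider pathway. The list had 32 genes: Mtf1, 10 genes of the Slc30 family, 14 genes of the Slc39 family and 7 copper genes. Mtf1 encodes the zinc sensor that switches on Mt1 and Mt2. The Slc30 family is best known for zinc export and the Slc39 family for zinc import, though not every member is chiefly a zinc carrier. The copper genes were the pumps Atp7a and Atp7b, the copper transporters Slc31a1 and Slc31a2, the chaperones Atox1 and Ccs, and Sod1. After CORT 6 of 32 had a GR peak in the gene or within 5 kb (18.8%, exact 95% interval 7.21% to 36.4%) and 9 had an MR peak (28.1%, 13.7% to 46.7%). After washout 1 had a GR peak (3.13%, 0.0791% to 16.2%) and 4 had an MR peak (12.5%, 3.51% to 29.0%). All 4 intervals hold the share among all protein-coding genes, which was given above, so a difference from all genes was not detectable with 32 genes. None had a peak after vehicle.

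The genes with peaks were 6 of the 10 in the Slc30 family and 3 of the 14 in the Slc39 family. Mtf1 and the copper genes, 8 in all, had no peak. Among all protein-coding genes the CORT shares were only 17.7% for GR and 20.5% for MR. A count of 0 among 8 genes therefore does not set them apart, and the families were not compared by a test. The highest −log10 p was at Slc30a8, the zinc transporter of insulin granules, where the MR peak after CORT had a −log10 p of 24.5 (97.0th percentile) and the GR peak 11.4. Slc30a2 had a GR peak of 19.3 (95.6th percentile) and an MR peak of 14.2. Slc30a3, which loads zinc into synaptic vesicles, had a GR peak of 17.2 and an MR peak of 17.8, and an MR peak of 16.2 was listed there after washout. The summits of these peaks at Slc30a2 and Slc30a3 lay past the end of the gene. After CORT the GR summit was 12986 bp past the start of Slc30a2, which is 11.3 kb long. That of Slc30a3, a gene of 22.1 kb, was 25389 bp past its start. Slc39a11, a gene of 405 kb, had 7 GR and 8 MR peaks after CORT, with a highest −log10 p of 15.7 and 19.6.

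At Slc30a5 the strongest GR peak after CORT had a −log10 p of 13.3 and the MR peak 14.0. It was also the only gene of the list with a GR peak after washout, at 12.8. Slc30a1, the plasma membrane exporter induced by zinc through MTF-1, had a GR peak of 11.9 with its summit at −1273 bp from the start and an MR peak of 7.87 with its summit at −1353 bp. Slc39a10 had an MR peak of 10.6 and no GR peak, and Slc39a4, the intestinal zinc importer, had an MR peak of 6.96 and no GR peak. Among these, summits of both receptors lay close to the start site at Slc30a1 and Slc30a5, and at Slc30a5 the GR summit was 497 bp past the start.

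**Figure D5:**
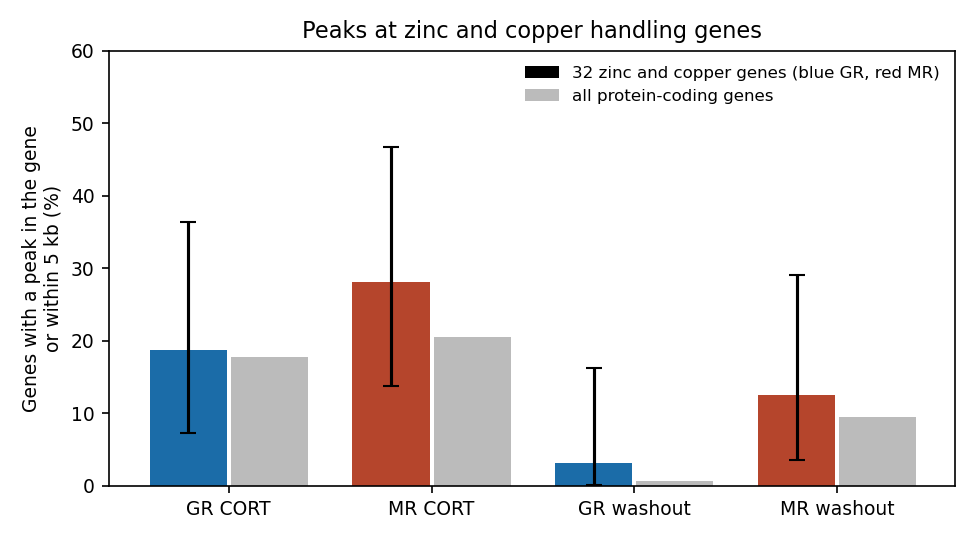
Percentage of the 32 zinc and copper handling genes with a peak in the gene or within 5 kb (blue for GR, red for MR, error bars are exact 95% binomial intervals) beside all protein-coding genes (grey). In each of the 4 lists the grey value falls inside the interval of the list, for example 17.7% against 18.8% for GR after CORT.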

How the data were processed

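The 9 samples were N2A cells with 2 receptors and an input after 3 treatments, and samples were grouped by their titles. The authors aligned reads to GRCm38 (mm10) with Bowtie2, removed duplicates with the same random barcode, combined the 3 replicates of a condition and ran MACS2 2.1.1.20160309 against input at a false discovery rate of 0.05. Border pairs came from MACE, and whether replicates were combined for it is not given in the sources used here. The deposited −log10 values are −log10 p and, under a heading for fold enrichment, −log10 q. The deposited score is the whole part of 10 times −log10 q (for 4884 of 4885 MR washout peaks and for every peak of the other lists), and the last column is the distance of the summit from the start. Border pairs carry a p-value in the deposited lists, except that of GR after CORT, and it was not used. The submitters' text names mouse receptors and the methods name rat cDNAs.

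Starts were read as 0-based and are given 1-based. The lists hold no read counts, so depth is not known from them. Intervals cover counting error only. Genes came from GENCODE M21 and sequence from GRCm38. GRE matches were counted on chromosomes 1 to 19, X and Y. Members, gene lists and rules were chosen with earlier results of these data known. The named genes were the 4 metallothioneins, other genes of the window, Mtf1, the 8 zinc and copper genes with the strongest CORT peaks, and Fkbp5, Per1, Sgk1 and Tsc22d3. Nup93 and the exact hexamers were added after their values were seen. Overlap and motif functions were tested on simulated data. Computations used Python 3.11.15, numpy 2.4.6, pandas 2.3.3, scipy 1.17.1 and matplotlib 3.10.9.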

Additional observations from a re-analysis of the deposited data

Results flagged for a closer look

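At the upstream place of Mt2 the receptors went opposite ways between CORT and washout in their lists. The GR peak, with a −log10 p of 7.13, was listed after CORT and not after washout, and the MR peak, with a −log10 p of 6.76, was listed after washout and not after CORT. Such a gap was common for GR, since 2.13% of GR peaks after CORT were overlapped by a GR washout peak, and less so for MR, since 75.7% of MR washout peaks were overlapped by an MR peak after CORT. The intervals share no base, each condition is 1 list, and the difference between the receptors was not tested.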

How the results depend on the processing

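Of 87 values under alternatives for 37 results, 61 stayed within 1.5 times the main count or within the counting interval of the main value, and 26 moved. Some of the 61 could not have moved, such as a count of 0 under a stricter cut or a narrower flank. The 61 are therefore not a measure of how stable the results are. Requiring a −log10 q of at least 5 left 1 GR peak in the cluster after CORT and, after washout, 0 of GR and 2 of MR, with 0 metallothionein genes with a GR peak after CORT or an MR peak after washout, so the upstream place and the GR washout peak rest on weaker peaks. A flank of 50 kb gave 4 peaks of GR and 6 of MR after CORT, 2 of GR after washout and 1 border pair of the washout input. Within 10 kb, metallothionein genes with a peak numbered 2 for GR and 1 for MR after CORT, and 1 and 2 after washout. Within 20 kb, zinc and copper genes with a peak numbered 10 for GR and 15 for MR after CORT. A wider distance can only raise such counts, for any genes. The shares of all protein-coding genes at 10 kb and 20 kb were not computed, so these counts have no comparison. Ranked among chromosome 8 peaks only, the strongest cluster peak stood at the 90.9th percentile for GR and the 91.6th for MR after CORT, and at the 38.0th for GR and the 94.9th for MR after washout. Without peaks that overlap a vehicle peak, the GR washout peak stood at the 58.6th percentile. With summits within 50 bp as the overlap, 0 GR peaks had an MR partner after CORT. With at most 2 mismatches, 1 GR and 0 MR peaks after CORT had a GRE match, and an exact hexamer, an alternative chosen after the data were seen, lay near 1 GR and 2 MR summits. The input of CORT alone had 0.1003 times the pair density of chromosome 8 in the 2 Mb around the cluster. Lists pool their replicates, so no replicate could be left out. No paired analysis was possible because each group is a single list. Binding without a listed peak may lie under the limit that depth and threshold set in each list, and the depth is not known from the files. The paper's text gives mapped reads as a range over the treatments, so depth was unequal, but not which list had which depth.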
